A study of Homo sapiens with 9 samples.

Results

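The mitosis genes described here are 60 genes whose products carry a cell from entry into mitosis to its division, and 59 of them were measured among 18417 genes with a probe set of their own. They were chosen as a list by name, with earlier results of these data known, so their counts beside those of all genes are a description. They were grouped by step: 11 genes of entry into mitosis, 7 of chromosome structure, 11 of the spindle, 18 of the kinetochore and its checkpoint, 3 of anaphase and mitotic exit and 10 of cytokinesis. A gene was taken from the table only where a probe set, the group of probes that reports 1 transcript, carried exactly 1 gene symbol. CENPA, the histone variant that marks the centromere, has a single probe set that also carries the symbol SLC35F6, so it was not analysed here.

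The data are array measurements of RNA from IMR90 ER:RAS cells, a human lung fibroblast line that carries an oncogenic RAS joined to the ligand-binding domain of the estrogen receptor. The fused protein stays inactive until the drug 4-hydroxytamoxifen (4OHT) is added, after which these fibroblasts enter oncogene-induced senescence, a lasting arrest of the cell cycle. The 9 arrays fall into 3 groups of 3. Non-senescent cells (vector-4OHT) held an empty vector without the drug, senescent cells (vector+4OHT) held the empty vector with it, and knockdown cells (shARID1B+4OHT) held a short hairpin RNA against ARID1B with it. All 3 groups carry ER:RAS, and the labels give 100 nM 4OHT, 6 days after 4OHT and 7 days of growth. They do not name the hairpin or say how many were used. There is no labelled group with a control hairpin, with shARID1B but no 4OHT, or with 4OHT but no ER:RAS, so effects of the drug and of RAS cannot be told apart. Replicates are not described in the labels as separate cultures, and p-values therefore measure the spread between these samples alone.

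Mitosis begins when cyclin B bound to the kinase CDK1 passes a threshold of activity. Chromosomes then condense, kinetochores attach them to the spindle, a checkpoint holds anaphase until all are attached, and the cell is cleaved by a contractile ring. Most of these genes are transcribed in G2 and M phase. In dividing cells their promoters are driven by the MuvB core with the MYB factor MYBL2 and with FOXM1, and in arrested cells the DREAM complex, the same core with other partners, represses them. Known elements of this control are the CCAAT box, bound by the factor NF-Y, and the cell cycle genes homology region (CHR, written TTTGAA or TTCGAA), which the MuvB core contacts.

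The promoters are shown to describe where these elements occur, and no relation of a match to the change of a gene was tested. RefSeq windows of assembly GRCh38.p14, from 250 bases before to 50 bases after the annotated start, were found for 51 of the 60 genes. RefSeq gave 35116 windows for 27305 genes, and only the first window listed for each gene was used. Matches at other annotated starts were not counted. Both strands were searched, so ATTGG and TTCAAA are the other strand of CCAAT and TTTGAA, and TTCGAA reads the same on both. CCAAT occurred in 35 of the 51 windows (68.6%), against 36.3% of the 14239 tested genes that have a window. A CHR match occurred in 36 of 51 (70.6%), against 13.3%, and both occurred in 27 of 51 (52.9%), against 5.44%. In windows of 81 other mitosis genes, a list described at the end, the shares lay between these, at 56.8%, 40.7% and 24.7%. Over all 27305 genes of the RefSeq table they were 35.7%, 16.6% and 6.58%. INCENP and ECT2, which were not called lower in senescence, also hold both kinds of match. CHR matches were present in 8 of 9 spindle windows, 8 of 9 of cytokinesis and 6 of 7 of chromosome structure, and in 3 of 9 of entry into mitosis. Such a match is a description of the letters in the window and no measurement of binding.

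The 250 bases before the start are given for the 6 genes with the smallest senescence p-values among those with both kinds of match in the 300 bases. They run 5′ to 3′ toward the gene, with capitals marking the matches.
NUSAP1 (chr15:41332631-41332880, plus strand): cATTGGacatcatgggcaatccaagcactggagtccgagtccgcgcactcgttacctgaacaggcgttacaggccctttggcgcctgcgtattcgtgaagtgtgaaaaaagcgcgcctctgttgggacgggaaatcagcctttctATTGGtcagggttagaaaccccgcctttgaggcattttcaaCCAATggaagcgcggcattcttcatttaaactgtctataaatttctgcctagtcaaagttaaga
PLK1 (chr16:23678639-23678888, plus strand): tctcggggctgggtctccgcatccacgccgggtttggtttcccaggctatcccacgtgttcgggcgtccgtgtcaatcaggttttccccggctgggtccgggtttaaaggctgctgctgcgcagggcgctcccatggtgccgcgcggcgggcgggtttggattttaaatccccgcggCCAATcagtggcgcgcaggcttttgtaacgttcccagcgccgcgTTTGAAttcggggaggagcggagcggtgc
CEP55 (chr10:93496362-93496611, plus strand): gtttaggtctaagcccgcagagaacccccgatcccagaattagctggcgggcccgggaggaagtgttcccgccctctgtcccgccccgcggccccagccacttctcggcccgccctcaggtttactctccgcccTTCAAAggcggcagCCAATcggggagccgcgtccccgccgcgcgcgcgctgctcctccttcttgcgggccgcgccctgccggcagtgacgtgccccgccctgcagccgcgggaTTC
CDCA8 (chr1:37692266-37692515, plus strand): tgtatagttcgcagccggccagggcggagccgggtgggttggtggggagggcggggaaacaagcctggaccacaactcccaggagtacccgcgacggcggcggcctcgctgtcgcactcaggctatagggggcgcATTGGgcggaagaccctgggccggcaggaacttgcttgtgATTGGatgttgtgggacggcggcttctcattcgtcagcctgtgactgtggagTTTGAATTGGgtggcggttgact
ASPM (chr1:197146670-197146919, minus strand): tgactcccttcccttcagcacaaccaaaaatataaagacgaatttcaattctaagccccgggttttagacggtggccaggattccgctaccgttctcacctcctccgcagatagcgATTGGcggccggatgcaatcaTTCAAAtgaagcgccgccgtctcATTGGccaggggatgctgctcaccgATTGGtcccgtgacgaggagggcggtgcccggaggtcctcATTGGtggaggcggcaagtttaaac
BUB1 (chr2:110678064-110678313, minus strand): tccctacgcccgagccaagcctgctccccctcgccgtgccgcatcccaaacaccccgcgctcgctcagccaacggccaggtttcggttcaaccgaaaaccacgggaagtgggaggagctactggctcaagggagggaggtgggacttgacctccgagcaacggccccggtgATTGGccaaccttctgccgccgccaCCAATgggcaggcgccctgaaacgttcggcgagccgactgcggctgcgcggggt

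Counting back from the start, the single CCAAT of PLK1 begins 73 bases before it and the CHR 29 bases before it. In CEP55 the last 3 capitals open a TTCAAA that crosses the start. The TTTGAA of CDCA8 shares a base with the ATTGG that follows it. The CHR matches of NUSAP1, 14 bases into the transcript, and of BUB1, 2 bases into it, lie beyond the bases printed. ASPM holds 4 CCAAT matches in the printed stretch, NUSAP1 and CDCA8 hold 3 each, and BUB1 holds 2.

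The arrays had medians from 6.70 to 6.79 on the log2 scale, and arrays of a group correlated at 0.9955 to 0.9972 across probe sets. Like medians follow from the quantile normalization described below, so they are no check of the arrays. ARID1B, the target of the hairpin and a subunit of the SWI/SNF chromatin remodeling complex, was at 8.63, 8.96 and 8.77 in senescent cells and at 8.07, 7.96 and 8.13 in knockdown cells, with no overlap (log2 change -0.73, limma adjusted p = 0.000179). CDKN1A, which encodes the inhibitor p21, had a senescence change of 0.69 (adjusted p = 3.99e-06) and a knockdown change of -0.48 (adjusted p = 0.000279). The corresponding changes of CDKN2A, the p16 gene, were 0.49 (adjusted p = 4.08e-05) and -0.14 (adjusted p = 0.108). All 10 fibroblast markers averaged above 6.75, the median of all values, in every group, as against 1 of 7 leukocyte, 2 of 8 endothelial and 3 or 4 of 6 epithelial markers.

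The comparison of senescent with non-senescent cells asks how the mitosis genes differed once RAS had been switched on. Of the 59 genes measured, 55 fell, 1 rose and 3 were not called. Calls required a limma adjusted p below 0.05, with adjustment over all 18417 genes, of which 17.6% were called lower and 14.9% higher. The median change of the mitosis genes was -1.10 on the log2 scale, 0.466 times the non-senescent level, beside -0.012 over all genes. At least 2-fold falls were found in 33 of 59, against 1.62% of all genes, and at least 2-fold rises in 0, against 1.35%. In 55 of 59 every senescent array lay below every non-senescent one, against 21.7% of all genes. The changes ran from -2.00 for CDK1 to 0.20 for BUB3. In bulk RNA, fewer dividing cells and less of these RNAs per cell cannot be told apart.

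Fibroblast markers moved in this comparison too. Of 10 markers 9 fell, with a median of -0.31, and their summed log2 level went from 115.88 to 117.17 over the non-senescent arrays to 111.00 to 111.87 over the senescent ones. Their part in the changes of the mitosis genes was not tested. Of 7 leukocyte, 8 endothelial and 6 epithelial markers, 0, 1 and 2 fell, and 0, 1 and 0 rose.

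**Figure D1:**
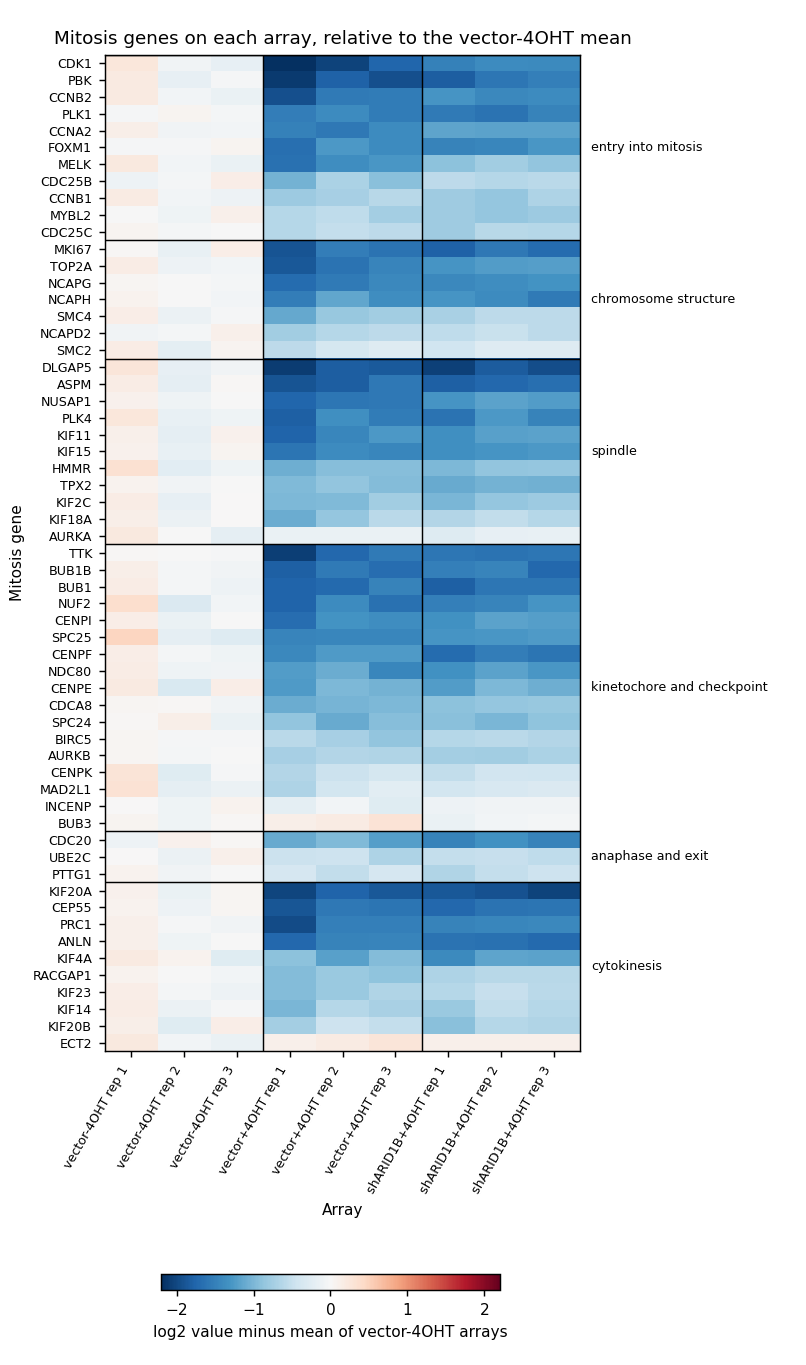
Log2 values of the 59 mitosis genes (rows, by step) on the 9 arrays (columns), each minus the gene's mean over the 3 vector-4OHT arrays; blue is lower and red higher. Both 4OHT groups are blue in nearly every row, with AURKA, INCENP, BUB3 and ECT2 near white or pale red in senescent cells.

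All 11 genes of entry into mitosis fell in senescence, with a median change of -1.43 and a range from -2.00 to -0.57. CDK1, the kinase that drives entry, had log2 values of 7.67, 7.34 and 7.24 on the non-senescent arrays, 5.20, 5.38 and 5.68 on the senescent arrays and 5.94, 6.04 and 6.02 on the knockdown arrays. The groups did not overlap, and the knockdown arrays lay between the others. Its senescence change was -2.00 (95% interval -2.28 to -1.72, adjusted p = 5.74e-07), to 0.251 times the starting level. CCNB1, the cyclin that activates CDK1, was at 8.71, 8.47 and 8.42, then 7.74, 7.80 and 7.92, then 7.74, 7.68 and 7.85 in the same order of groups. It fell less than CDK1, by 0.71 (standard error 0.083, adjusted p = 5.96e-05), and its 2 groups with 4OHT overlapped.

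CCNA2, the cyclin that works in S phase and early mitosis, went from 9.37, 9.16 and 9.17 to 7.75, 7.67 and 7.85 and stood at 8.07, 8.06 and 8.07 in knockdown cells. It fell by 1.48 (standard error 0.067, adjusted p = 5.05e-08), with each group apart from the others. PBK, a kinase active in mitosis, went from 8.40, 8.03 and 8.17 to 6.09, 6.43 and 6.26 and was at 6.39, 6.61 and 6.70 in knockdown cells. It fell by 1.94, next to CDK1 in size (standard error 0.114, adjusted p = 3.27e-07). MELK, a kinase whose RNA peaks in dividing cells, was at 9.05, 8.77 and 8.69, at 7.20, 7.46 and 7.54, and at 7.92, 8.06 and 7.96. The senescent arrays were lowest and the knockdown arrays between, and the senescence change was -1.43 (standard error 0.106, adjusted p = 1.86e-06).

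PLK1, the kinase that promotes entry, spindle assembly and exit, was at 9.59, 9.66 and 9.57 without the drug, at 8.09, 8.23 and 8.06 in senescent cells and at 8.05, 7.98 and 8.13 in knockdown cells. It fell by 1.48 (standard error 0.061, adjusted p = 2.35e-08), and the senescent and knockdown arrays overlapped. Among the transcription factors that drive this program, FOXM1 was at 8.80, 8.81 and 8.89, at 7.18, 7.57 and 7.45, and at 7.36, 7.40 and 7.54. MYBL2 was at 7.69, 7.60 and 7.80, at 7.07, 7.14 and 6.96, and at 6.92, 6.85 and 6.89. FOXM1 fell by 1.43 (standard error 0.092, adjusted p = 6.34e-07) and MYBL2 by 0.64 (standard error 0.065, adjusted p = 2.09e-05), each with no overlap between senescent and non-senescent arrays. The other members of this step, CCNB2, CDC25B and CDC25C, fell by 1.68, 0.88 and 0.57.

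The 7 genes of chromosome structure all fell, with a median of -1.34. MKI67, whose protein Ki-67 coats mitotic chromosomes and is the usual marker of dividing cells, was at 8.64, 8.45 and 8.76 without the drug, at 6.71, 7.09 and 7.00 in senescent cells and at 6.83, 7.04 and 6.92 in knockdown cells. Its senescent level was 0.311 times the non-senescent one (log2 change -1.69, 95% interval -1.92 to -1.45, adjusted p = 5.49e-07), and the knockdown arrays lay within the range of the senescent ones. TOP2A, the topoisomerase that untangles sister chromatids, was at 10.12, 9.84 and 9.90, at 8.09, 8.32 and 8.49, and at 8.65, 8.73 and 8.73. It fell by 1.65 (standard error 0.10, adjusted p = 4.27e-07), and the knockdown arrays lay between the other groups.

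NCAPG and NCAPH are subunits of condensin I, which compacts chromosomes. NCAPG was at 8.49, 8.45 and 8.42, at 6.77, 6.90 and 7.03, and at 7.04, 7.09 and 7.14, and its senescence change was -1.56 (standard error 0.067, adjusted p = 3.05e-08). NCAPH was at 7.97, 7.89 and 7.83, at 6.38, 6.75 and 6.54, and at 6.60, 6.52 and 6.34, a change of -1.34 (standard error 0.095, adjusted p = 1.34e-06). For NCAPG the knockdown arrays lay just above the senescent ones, and for NCAPH they overlapped. NCAPD2, the remaining condensin I subunit of the list, fell by 0.66. SMC4 and SMC2, the ATPases at the core of condensin, fell by 0.91 and 0.41, SMC2 least of the step.

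Of 11 spindle genes, 10 fell, with a step median of -1.48, and AURKA was not called. NUSAP1, which bundles spindle microtubules, was at 8.84, 8.66 and 8.73 in non-senescent cells, at 7.00, 7.15 and 7.17 in senescent cells and at 7.44, 7.56 and 7.52 in knockdown cells. Its senescence change of -1.64 (standard error 0.066, adjusted p = 2.10e-08) had the smallest adjusted p of the list, and its groups stood apart. ASPM, which focuses spindle poles, was at 7.96, 7.60 and 7.83, at 5.90, 5.99 and 6.22, and at 6.00, 6.07 and 6.14, with a change of -1.76 (standard error 0.101, adjusted p = 2.71e-07). KIF15, a kinesin that helps keep the spindle bipolar, was at 6.79, 6.53 and 6.75, at 5.08, 5.30 and 5.26, and at 5.33, 5.40 and 5.42, with a change of -1.48 (standard error 0.080, adjusted p = 1.76e-07). In ASPM the knockdown arrays lay within the senescent range, and in KIF15 just above it.

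TPX2, the protein that activates Aurora A at the spindle, was at 9.40, 9.26 and 9.33, at 8.36, 8.46 and 8.37, and at 8.21, 8.29 and 8.28, so that knockdown arrays were the lowest. It fell by 0.93 in senescence (standard error 0.055, adjusted p = 3.46e-07). AURKA, which encodes Aurora A, was at 9.68, 9.44 and 9.25 without the drug, at 9.32 on all 3 senescent arrays and at 9.18, 9.28 and 9.30 in knockdown cells. The senescent value was the same on each array, which lowers the measured spread, and it lay inside the range of the non-senescent arrays. The AURKA change of -0.14 had a 95% interval of -0.34 to 0.06 (adjusted p = 0.292). The other spindle genes, among them the motor KIF11 and the centriole kinase PLK4, fell by 0.85 (KIF18A) to 1.91 (DLGAP5).

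Kinetochore and checkpoint genes fell in 15 of 17, with a median of -1.09, while BUB3 rose and INCENP was not called. TTK, the kinase that starts checkpoint signaling, was at 6.74, 6.71 and 6.69 in non-senescent cells, at 4.65, 4.98 and 5.16 in senescent cells and at 5.13, 5.10 and 5.12 in knockdown cells. BUB1B, which encodes the checkpoint protein BUBR1, was at 8.30, 8.14 and 8.10, at 6.38, 6.63 and 6.50, and at 6.67, 6.74 and 6.45. BUB1, a checkpoint kinase of the kinetochore, was at 8.36, 8.15 and 8.08, at 6.43, 6.49 and 6.72, and at 6.40, 6.60 and 6.61. All 3 fell without overlap, with changes of -1.79 for TTK (adjusted p = 2.78e-07), -1.68 for BUB1B (adjusted p = 1.69e-07) and -1.65 for BUB1 (adjusted p = 3.29e-07), and standard errors of 0.103, 0.090 and 0.097.

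BUB3, the partner that brings BUB1 and BUBR1 to kinetochores and that also works outside mitosis, was at 10.00, 9.85 and 9.97 without the drug, at 10.06, 10.12 and 10.24 in senescent cells and at 9.80, 9.88 and 9.90 in knockdown cells. It was the member that rose in senescence, by 0.20 (95% interval 0.06 to 0.34, adjusted p = 0.0297). It lost the call when vector-4OHT replicate 2, vector+4OHT replicate 2 or vector+4OHT replicate 3 was left out, with adjusted p-values of 0.0605 to 0.113. MAD2L1, which encodes the checkpoint inhibitor of CDC20, was at 7.57, 7.05 and 7.12, at 6.56, 6.85 and 7.02, and at 6.85, 6.90 and 6.94. Its fall of 0.43 (standard error 0.138, adjusted p = 0.0326) was lost without vector-4OHT replicate 1, vector+4OHT replicate 1 or vector+4OHT replicate 2 (adjusted p = 0.0686 to 0.114).

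The chromosomal passenger complex corrects faulty attachments and later guides cleavage. Its kinase AURKB was at 8.27, 8.18 and 8.22, at 7.49, 7.58 and 7.56, and at 7.48, 7.46 and 7.53, and CDCA8, which encodes Borealin, was at 8.12, 8.10 and 8.00, at 6.97, 7.05 and 7.08, and at 7.16, 7.22 and 7.24. AURKB fell by 0.68 (standard error 0.050, adjusted p = 1.81e-06) and CDCA8 by 1.03 (standard error 0.054, adjusted p = 1.54e-07). INCENP, the scaffold of the complex, was at 8.14, 8.04 and 8.21, at 7.91, 8.07 and 7.87, and at 8.01, 8.05 and 8.05, with overlap between all groups. Its senescence change was -0.18 (95% interval -0.33 to -0.04, adjusted p = 0.0532). BIRC5, which encodes the subunit survivin, fell by 0.73 on the brighter of its 2 probe sets. The dimmer one had means of 5.52 ± 0.060, 5.31 ± 0.256 and 5.47 ± 0.028 (SD, n = 3) in non-senescent, senescent and knockdown cells.

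CENPF, a large protein of the outer kinetochore, was at 8.71, 8.52 and 8.47 without the drug, at 7.15, 7.32 and 7.32 in senescent cells and at 6.87, 7.04 and 6.96 in knockdown cells. Each group was apart from the next, and the senescence change was -1.31 (standard error 0.078, adjusted p = 3.67e-07). The 4 subunits of the NDC80 complex, which grips microtubules, fell by 1.25 (NDC80), 1.60 (NUF2), 0.97 (SPC24) and 1.44 (SPC25). CENPI and CENPK, of the inner kinetochore, fell by 1.45 and 0.50, and the motor CENPE by 1.09.

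The 3 genes of anaphase and exit fell, with a median of -0.53. CDC20, which activates the anaphase-promoting complex, was at 8.83, 9.03 and 8.96, at 7.83, 7.96 and 7.73, and at 7.47, 7.61 and 7.47, with the knockdown arrays below the senescent ones. UBE2C, the ubiquitin-conjugating enzyme of that complex, was at 7.88, 7.75 and 7.99, at 7.41, 7.43 and 7.19, and at 7.35, 7.37 and 7.31. PTTG1, which encodes securin, the inhibitor of separase, was at 8.29, 8.14 and 8.20, at 7.83, 7.67 and 7.83, and at 7.55, 7.68 and 7.75. CDC20 fell by 1.10 (standard error 0.076, adjusted p = 1.13e-06), UBE2C by 0.53 (0.078, adjusted p = 0.000294) and PTTG1 by 0.43 (0.070, adjusted p = 0.000657), and no senescent array of the 3 genes reached a non-senescent one.

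Cytokinesis genes fell in 9 of 10, with a median of -0.95, and ECT2 was not called. KIF20A, a kinesin of the central spindle, was at 8.98, 8.74 and 8.92 in non-senescent cells, at 6.85, 7.11 and 7.01 in senescent cells and at 7.01, 6.95 and 6.84 in knockdown cells. CEP55, which recruits the machinery that severs the last bridge between daughter cells, was at 8.72, 8.53 and 8.69, at 6.77, 7.07 and 7.04, and at 6.93, 7.03 and 7.04. ANLN, which encodes the ring scaffold anillin, was at 10.03, 9.82 and 9.92, at 8.20, 8.45 and 8.47, and at 8.31, 8.29 and 8.22. The falls were 1.89 for KIF20A (standard error 0.082, adjusted p = 3.61e-08), 1.69 for CEP55 (0.083, adjusted p = 9.44e-08) and 1.55 for ANLN (0.080, adjusted p = 1.28e-07), and in each the senescent and knockdown arrays overlapped.

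RACGAP1 and KIF23 form the centralspindlin complex, and ECT2 is the activator of RhoA that this complex brings to the cell equator. RACGAP1 was at 9.34, 9.26 and 9.21, at 8.32, 8.46 and 8.38, and at 8.60, 8.65 and 8.65, with each group apart, and fell by 0.89 (standard error 0.056, adjusted p = 5.72e-07). KIF23 fell by 0.81. ECT2 was at 9.43, 9.15 and 9.07, at 9.33, 9.39 and 9.49, and at 9.33 on each knockdown array, and its non-senescent arrays spanned those of both other groups apart from 1 senescent array above them. The knockdown values of ECT2 had an SD of 0.0023, which likewise lowers its measured spread. The ECT2 change of 0.19 had a 95% interval of 0.00 to 0.37 (adjusted p = 0.125). The remaining members, from KIF20B to PRC1, fell by 0.58 to 1.66.

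**Figure D2:**
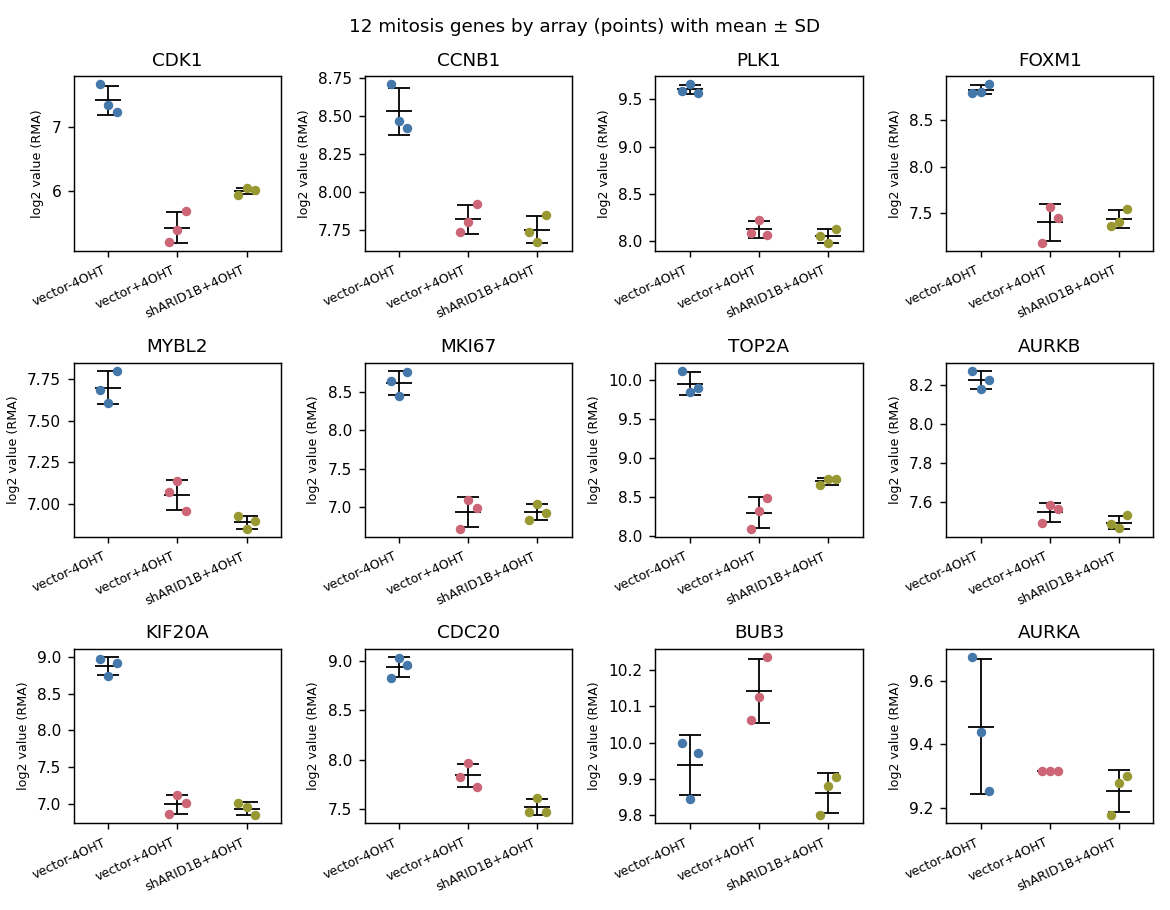
Log2 values (RMA) of 12 mitosis genes by group, with 1 point per array and bars for the group mean and SD, each panel on its own axis. CDK1 and TOP2A have knockdown arrays between the other groups, CDC20 and MYBL2 have them lowest, BUB3 is highest in senescent cells, and AURKA is at 9.32 on all 3 senescent arrays.

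The size of many falls is uncertain. For 22 mitosis genes in senescent cells and 21 in knockdown cells the mean was under 6.75, the median of all values, with no evidence in the table of signal above background, while 37 genes stayed above it in all 3 groups. Of the genes given above by array, CDK1, PBK, NCAPH, ASPM, BUB1 and BUB1B ended below it in both 4OHT groups, and KIF15 and TTK were below it in all 3. Genes given by change alone included DLGAP5, NUF2, SPC24 and CENPE, below it in both 4OHT groups, and NDC80, SPC25 and CDC25C, below it in all 3. Replicates also differed as whole arrays: vector-4OHT replicate 1 was the highest of its group in 48 of 59 genes. The lowest of their groups were vector+4OHT replicate 1, in 47 genes, and shARID1B+4OHT replicate 1, in 42. The median level over the mitosis genes was 8.25 ± 0.133 in non-senescent, 7.06 ± 0.080 in senescent and 7.09 ± 0.050 in knockdown cells (SD, n = 3).

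The comparison of knockdown with senescent cells asks what differed with the hairpin among cells that received the drug. Of the 59 mitosis genes 6 rose, 3 fell and 50 were not called, and 0 changed 2-fold, against 0.353% of all genes higher and 0.0814% lower by that much. Over all genes limma called 15.7%, with 9.63% higher and 6.09% lower, and 9 of 59 is near that share, so the count is no result about the mitosis genes. Their median change was 0.08, beside -0.017 over all genes. Without vector+4OHT replicate 1, the array lowest in most of these genes, the median was -0.0013. This comparison shares the vector+4OHT arrays with the one before it, so the 2 are not independent.

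Markers of cell types moved here as well. Of 10 fibroblast markers 3 rose and 1 fell, beside 9.63% and 6.09% of all genes. DCN rose most, by 0.65 (limma adjusted p = 0.000104), and COL1A1 was the one that fell, by 0.21 (limma adjusted p = 0.0469). The median of the 10 was 0.11, and their summed log2 level was 112.70 to 112.97 over the knockdown arrays. Of 6 epithelial markers 2 rose, KRT19 by 0.86 and CLDN4 by 0.38, and 0 fell. Of 8 endothelial markers 1 rose and 1 fell, and 0 of 7 leukocyte markers were called. Their part in the changes of the mitosis genes was not tested.

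The 6 genes that rose were CDK1, MELK and CCNA2 of entry, TOP2A of chromosome structure, NUSAP1 of the spindle and RACGAP1 of cytokinesis, and for each the arrays given above did not overlap between the groups compared. MELK rose by 0.58 (standard error 0.106, adjusted p = 0.00414) and CDK1 by 0.58 from a mean below 6.75 (0.126, adjusted p = 0.0109). NUSAP1 rose by 0.40 (0.066, adjusted p = 0.00227), TOP2A by 0.40 (0.10, adjusted p = 0.0204), CCNA2 by 0.31 (0.067, adjusted p = 0.0105) and RACGAP1 by 0.25 (0.056, adjusted p = 0.0122). CDK1, MELK, CCNA2 and NUSAP1 kept the call when any 1 array was left out. TOP2A lost it when senescent array 1 or 2 or knockdown array 2 or 3 was left out, and RACGAP1 when knockdown array 2 or 3 was (adjusted p = 0.0507 to 0.0738). TOP2A also lost it with all probe sets tested (adjusted p = 0.0577). Under the methods' t-test, which does not share the spread across genes, NUSAP1 alone of the 6 kept its call and SPC25 gained one. SPC25 averaged 4.49 in senescent and 4.65 in knockdown cells, under 6.75, with small SDs of 0.0090 and 0.0195. Its limma adjusted p was 0.522.

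The 3 genes lower with the hairpin were CDC20 and CENPF, which had also fallen in senescence, and BUB3, which had risen. CDC20 fell by 0.32 (standard error 0.076, adjusted p = 0.0153), CENPF by 0.30 (0.078, adjusted p = 0.0235) and BUB3 by 0.28 (0.063, adjusted p = 0.0122). None of these calls held when knockdown array 1 was left out. Those of CDC20 and CENPF also failed without senescent array 2 or knockdown array 3, and that of CENPF without senescent array 3 (adjusted p = 0.0527 to 0.0886). CENPF also lost its call with all probe sets tested (adjusted p = 0.0589) and with array medians subtracted (adjusted p = 0.0568), and under the methods' t-test none of the 3 was called. Among genes not called, the change was -0.00092 for MKI67 (95% interval -0.24 to 0.23), -0.07 for PLK1 (-0.20 to 0.07), -0.07 for CCNB1 (-0.25 to 0.12) and 0.04 for FOXM1 (-0.17 to 0.24). For AURKB it was -0.05 (-0.16 to 0.06) and for MYBL2 -0.17 (-0.31 to -0.02, adjusted p = 0.122). An adjusted p above 0.05 does not show that these levels were equal.

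**Figure D3:**
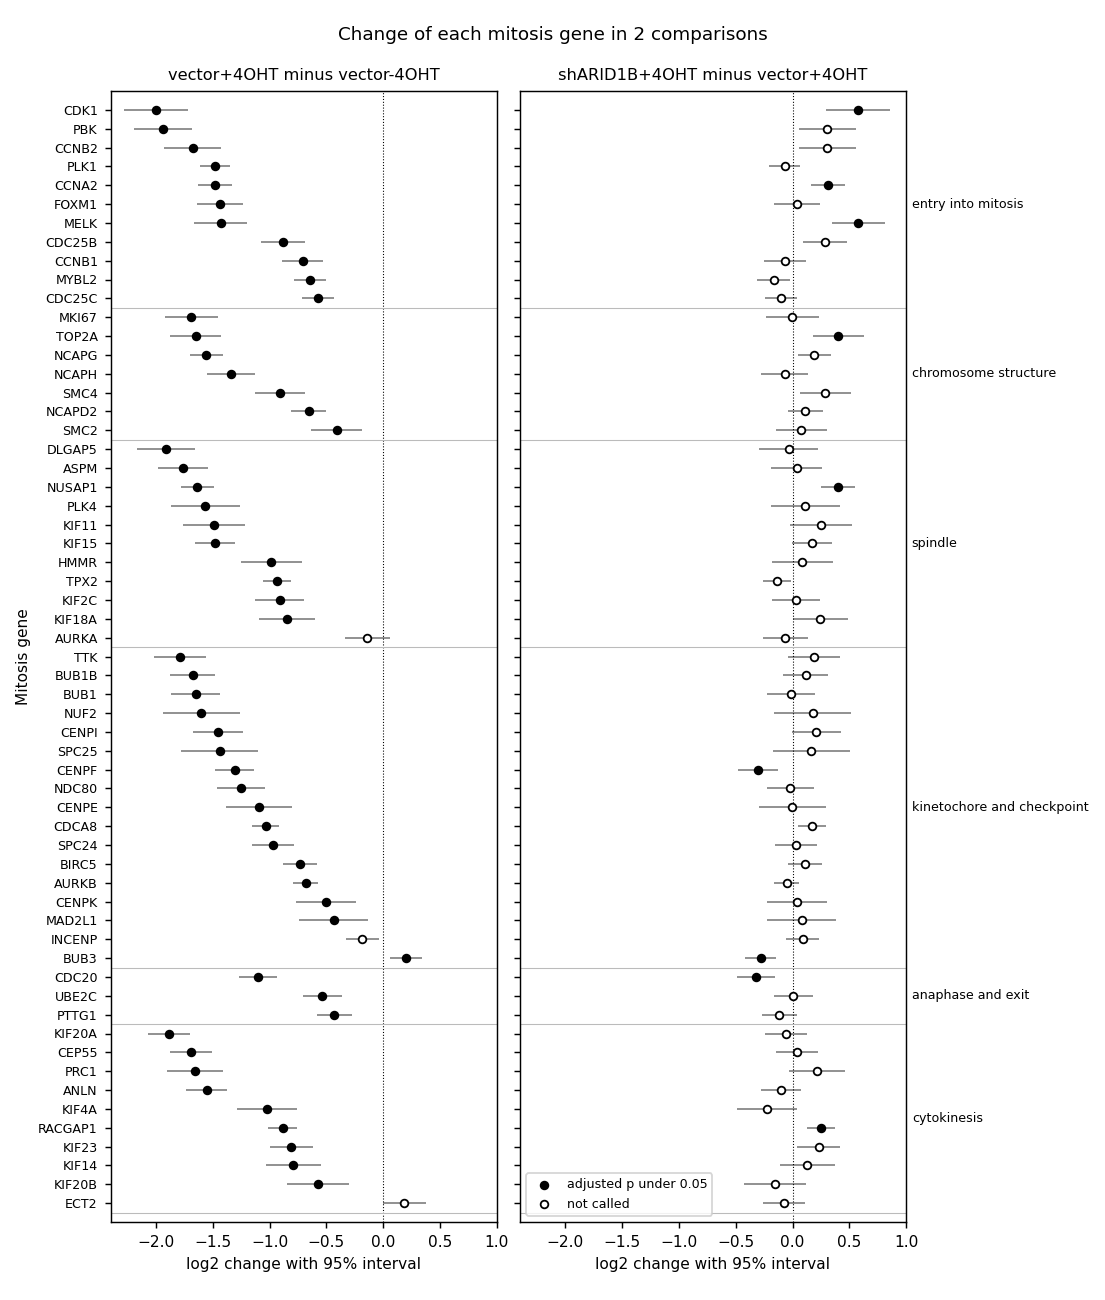
Log2 change (point) with its 95% interval (line) for each of the 59 mitosis genes, by step, for vector+4OHT minus vector-4OHT (left) and shARID1B+4OHT minus vector+4OHT (right); filled points have a limma adjusted p under 0.05. On the left 55 filled points lie below 0, and on the right 9 are filled, 6 above 0 and 3 below.

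By step, the median knockdown change was 0.29 for entry, 0.11 for chromosome structure, 0.09 for the spindle, 0.08 for the kinetochore and checkpoint, -0.011 for cytokinesis and -0.12 for anaphase and exit. Entry had 3 of 11 genes called higher and 0 lower, and the kinetochore step had 0 of 17 higher and 2 lower. Over all genes 9.63% were called higher and 6.09% lower. With so few genes and calls, these counts are no result about the steps. In 16 of the 59 genes every knockdown array lay above every senescent one, against 17.7% of all genes, and in 6 every one lay below, against 14.8%. The 16 genes included CCNB2, CDC25B, SMC4, NCAPG, SPC25, CDCA8, KIF23 and PRC1, which were not called, and in all 16 the knockdown arrays also lay below every non-senescent array.

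Knockdown cells set against non-senescent cells show what distance was left. Of 59 genes 54 were lower, 0 higher and 5 not called, where limma called 15.9% of all genes lower and 15.6% higher. The median change was -1.17, or 0.445 times the non-senescent level, beside -0.034 over all genes, and 32 were at least 2-fold lower, against 1.44% of all genes (1.58% were 2-fold higher). In 55 genes no knockdown array reached a non-senescent one, against 25.1% of all genes. This comparison shares the non-senescent arrays with the first and the knockdown arrays with the second. Of 10 fibroblast markers 7 were lower and 0 higher, with a median of -0.28, and of 6 epithelial, 8 endothelial and 7 leukocyte markers 1, 1 and 0 were higher and 0 were lower. The part of these markers in the result was not tested.

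The genes called in the knockdown comparison remained far from their starting level, with the exception of BUB3. CDK1 stayed 1.42 below it (adjusted p = 7.85e-06), TOP2A 1.25 (adjusted p = 3.55e-06), NUSAP1 1.24 (adjusted p = 1.46e-07) and CCNA2 1.17 (adjusted p = 2.68e-07). MELK stayed 0.85 below it (adjusted p = 9.89e-05) and RACGAP1 0.64 (adjusted p = 7.22e-06), while CDC20 and CENPF stood 1.43 and 1.61 below it. BUB3 differed by -0.08 (95% interval -0.22 to 0.06, adjusted p = 0.397). The other genes not called were AURKA (-0.20, adjusted p = 0.115), MAD2L1 (-0.35, adjusted p = 0.0775), INCENP (-0.09, adjusted p = 0.327) and ECT2 (0.11, adjusted p = 0.355). SMC2 (-0.33, adjusted p = 0.0277) lost its call without vector-4OHT replicate 1 or 3 or any 1 of the knockdown arrays. DLGAP5 and KIF20A were the farthest, at -1.95 and -1.94. DLGAP5 averaged under the median of all values in both 4OHT groups, so the size of its change is uncertain.

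By step the medians were -1.25 for chromosome structure, -1.24 for the spindle, -1.17 for entry, -1.10 for the kinetochore and checkpoint, -0.99 for cytokinesis and -0.54 for anaphase and exit. All genes of entry, chromosome structure and anaphase were called lower, as were 10 of 11 spindle, 14 of 17 kinetochore and 9 of 10 cytokinesis genes. Limma called 15.9% of all genes lower here.

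Other genes of mitosis, 91 by name and not among the 60, include many that work throughout the cell cycle. Of 89 measured, 44 (49.4%) fell and 3 (3.37%) rose in senescence, against 17.6% and 14.9% of all genes, with a median of -0.19. Kinetochore genes fell in 16 of 25, spindle genes in 7 of 9, cohesin, condensin II and separase genes in 8 of 16, DREAM and MuvB genes in 4 of 10, entry genes in 4 of 11, genes of the anaphase-promoting complex in 4 of 14 and cytokinesis genes in 1 of 4. The counts for cytokinesis and, at 28.6%, for the anaphase-promoting complex are not far from the 17.6% of all genes called lower, and they are no result about those lists. HJURP, the chaperone that loads CENPA, went from 8.31, 8.36 and 8.22 to 7.34, 7.36 and 7.36 and was at 7.26, 7.27 and 7.25 in knockdown cells (senescence change -0.95, adjusted p = 1.35e-07). KNL1, the kinetochore scaffold that binds BUB1, fell by 1.45, SKA1, which couples kinetochores to microtubules, by 1.43, CENPU, of the inner kinetochore, by 1.37 and the centrosome kinase NEK2 by 1.37. Of these, SKA1 averaged under 6.75, the median of all values, in all 3 groups. CENPU and NEK2 did so in both 4OHT groups and KNL1 in senescent cells, so the size of these falls is uncertain. MYBL1, a relative of MYBL2, fell by 1.15. ENSA, an inhibitor of the phosphatase PP2A, rose by 0.61, UBE2S, an enzyme that extends ubiquitin chains for the anaphase-promoting complex, by 0.44 and ANAPC5, a subunit of that complex, by 0.26, and these 3 were named because they were the ones that rose.

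With the hairpin, 13 of the 89 (14.6%) rose and 2 (2.25%) fell, with a median of 0.06. Over all genes 9.63% were called higher and 6.09% lower, 15.7% in all, so that 15 of 89 is near the background and the count is no result about these genes. CIT, which encodes citron kinase of the cleavage furrow, was at 8.02, 7.76 and 8.08 without the drug, at 7.46, 7.72 and 7.62 in senescent cells and at 6.97, 7.01 and 7.01 in knockdown cells, and so fell in both comparisons (knockdown change -0.60, adjusted p = 0.00105). ANAPC7, a subunit of the anaphase-promoting complex, was at 10.51, 10.45 and 10.42, at 10.11, 10.10 and 10.20, and at 10.48, 10.57 and 10.53, with senescent arrays apart from both other groups. It rose by 0.39 with the hairpin (adjusted p = 0.000614). The cohesin regulator PDS5B rose by 0.44 (adjusted p = 0.00297), the kinetochore proteins NSL1 and ZWILCH by 0.39 and 0.38 (adjusted p = 0.00141 and 0.00272), and RBBP4, a histone-binding subunit of the MuvB core, by 0.29 (adjusted p = 0.0067). Against non-senescent cells, ANAPC7, NSL1, ZWILCH and RBBP4 were not called in the knockdown group, with changes of 0.07, -0.13, -0.08 and -0.05. PDS5B was called higher there, by 0.25 (limma adjusted p = 0.0290). That call was lost when any 1 of 4 arrays was left out (adjusted p = 0.0685 to 0.114).

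**Figure D4:**
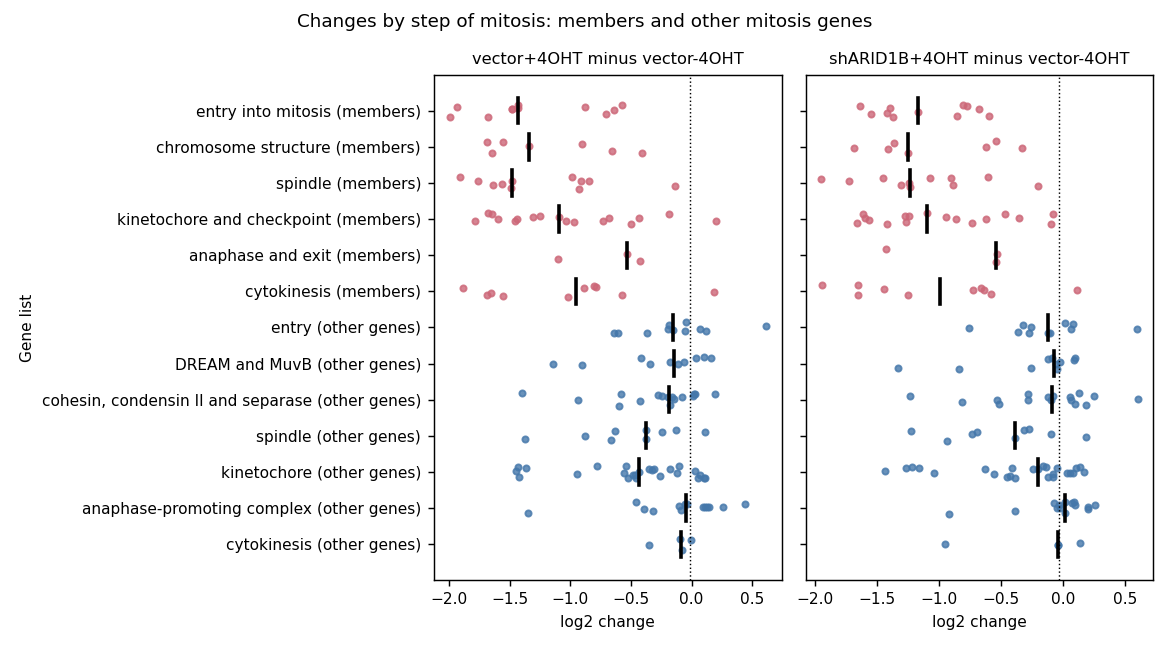
Log2 changes of single genes (points) and the median of each list (bar) for the mitosis genes by step (red, "members") and for the lists of other mitosis genes (blue), for vector+4OHT minus vector-4OHT (left) and shARID1B+4OHT minus vector-4OHT (right); the dotted line is the median of all genes tested. Medians of the red lists lie between -1.48 and -0.53 on the left, and those of the blue lists between -0.43 and -0.05.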

How the data were processed

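RNA of 9 samples of IMR90 ER:RAS fibroblasts was measured on Affymetrix Human Gene ST arrays, although the extract protocol in the labels names a kit for mRNA sequencing. The deposited values are on the log2 scale. RMA, which corrects background, equalizes array distributions by quantiles and summarizes probes, is named in the submitters' processing notes with oligo and limma. Versions and genome build are not given in the sources used here. Quantile normalization gives arrays like distributions, so changes are relative to the other genes. Of 33297 probe sets, 19460 carried exactly 1 gene symbol, and for 769 genes with several the brightest was kept. All 9 arrays were fitted by group in R 4.3.3 with lmFit and eBayes of limma 3.58.1, 2-sided, with Benjamini-Hochberg adjustment over 18417 genes. An exact permutation test at n = 3 per group reaches at best p = 0.1. The number of arrays limits the precision (median residual SD 0.0843). Scripts were tested on simulated data.

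The members and gene lists were chosen with earlier results of these data known. Values on every array are given for 8 core genes, for up to 4 members of each step with the smallest senescence p, for each member called in the knockdown comparison and for each not called lower in the other comparisons, and 6 other mitosis genes were named per comparison by smallest p. Alternatives were a replicate block, only the 6 arrays compared, array medians subtracted, dim genes left out, all probe sets or their mean, other eBayes settings, the methods' t-test, a 2-fold minimum and each array left out.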

Additional observations from a re-analysis of the deposited data

How the results depend on the processing

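With all arrays kept, 51 to 55 of the 59 mitosis genes were called lower in senescence, beside 55 as reported, except that 46 of the 49 left were called lower when dim genes were removed, INCENP among them, and that 33 passed a 2-fold minimum. Against non-senescent cells 32 passed that minimum. The call for BUB3 as higher in senescence was lost (0 higher) with only the 6 arrays compared, with all probe sets, under the methods' t-test and with a 2-fold minimum. In the knockdown comparison TOP2A and CENPF lost their calls with all probe sets, and CENPF with array medians subtracted. There the methods' t-test left 0 lower and 2 higher, and the 2-fold minimum 0 and 0. Over all genes the methods' t-test called 3737 in senescence and 1446 in knockdown, and the 2-fold minimum left 548 in senescence, 80 in knockdown and 557 against non-senescent cells.

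Leaving out each array in turn gave 54 to 56 lower and 0 to 2 higher mitosis genes in senescence, 0 to 3 lower and 4 to 11 higher in knockdown, and 53 to 55 lower and 0 to 1 higher against non-senescent cells. The 11 came without vector+4OHT replicate 3, where TTK, KIF18A, KIF23, NCAPG and SMC4 were added, and the 0 without shARID1B+4OHT replicate 1. Medians ran from -1.27 to -1.10, from -0.0013 to 0.10 and from -1.21 to -1.04 in the same order. All genes called ran from 5288 to 5969, from 1801 (without shARID1B+4OHT replicate 2) to 2817, and from 4639 to 6293.

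Changes that turned sign were uncalled before and after. With array medians subtracted, MKI67 and BUB1 had knockdown changes of 0.025 and 0.013, and RBBP4 stood at 0.011 against non-senescent cells. With 1 array left out, knockdown changes that crossed 0 ran from -0.075 to 0.12 for FOXM1, -0.11 to 0.078 for MKI67, -0.16 to 0.027 for NCAPH, -0.030 to 0.13 for ASPM, -0.070 to 0.074 for BUB1, -0.070 to 0.049 for UBE2C, -0.13 to 0.0015 for KIF20A, -0.056 to 0.090 for CEP55, -0.044 to 0.19 for MAD2L1 and -0.16 to 0.014 for CENPU. The cause was not tested.

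Deviations from the group means correlated across genes at -0.264 to 0.322 for arrays of different groups with the same number. For those with other numbers they correlated at -0.331 to 0.337. Between senescent and knockdown arrays, same-number pairs were at 0.322, 0.079 and 0.071, and the others ran from -0.321 to 0.267. With 3 arrays a group, these values cannot decide whether replicate numbers pair the arrays. A replicate block left 54 mitosis genes lower in senescence, with MAD2L1 lost, 3 lower and 6 higher in knockdown and 54 lower against non-senescent cells, and 5658, 2498 and 5437 of all genes called. With 3 arrays a group, small changes of dim genes stay undecided, and 49 of the 59 genes passed the filter on dim genes, a value over the overall median on at least 3 arrays.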
